A study of Mus musculus with 8 samples.

Results

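The genes described here encode the proteins of the cytosolic ribosome. They were taken by symbol: Rpl or Rps followed by digits and optionally a, l, x or a further digit, together with Rplp0, Rplp1 and Rplp2, without the Rps6k kinases and without predicted genes. Each gene was represented by the probe set that lists its symbol alone and has the highest mean over the 8 arrays. This gave 48 of the 18193 genes measured, 26 of the large subunit (Rpl) and 22 of the small subunit (Rps). The RefSeq gene table holds 83 protein-coding symbols that follow the rule. Of these, 47 were measured, 28 are listed only on probe sets that name several symbols, and 8 were not analysed here. The measured gene left over, Rps4l, is not a protein-coding entry of that table. Rpl3, Rpl5, Rpl10, Rpl10l, Rpl36a, Rplp1 and Rps27a were not measured on a probe set of their own.

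Bone marrow cells of mice were cultured with the growth factor M-CSF into macrophages, which were purified by adherence, and their RNA was labelled with biotin and hybridised to Affymetrix arrays. The 4 groups of 2 arrays were Tpl2 wild-type macrophages left unstimulated, Tpl2-deficient (knockout) macrophages left unstimulated, and both genotypes treated with lipopolysaccharide (LPS) from Escherichia coli at 1 μg/mL. Tpl2, encoded by Map3k8, is a protein kinase upstream of ERK in toll-like receptor signalling. The labels describe the arrays of a group as biological replicates without naming animals, give no LPS time for these arrays and do not describe the deleted allele, so the p-values cover the spread between arrays only, which may be technical.

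A ribosome is built from ribosomal RNAs and a set of proteins that are needed in nearly equal numbers, most of them from a single active gene with many processed pseudogenes. Ribosomal protein mRNAs are among the most abundant mRNAs of a cell. They begin with a run of pyrimidines at the cap, the terminal oligopyrimidine (TOP) motif, through which mTORC1 controls their translation. A few members have a paralogue of restricted expression, such as Rpl39l in testis and Rpl3l in striated muscle.

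Stretches around the start site are shown for the members whose values the results turn on, from 30 bases before to 20 bases after the RefSeq start in build GRCm38.p6. Capitals mark each run of a C followed by at least 4 pyrimidines that begins within 20 bases of the start, read on the strand of the gene.
Rpl7a, chr2:26910777-26910826, plus strand: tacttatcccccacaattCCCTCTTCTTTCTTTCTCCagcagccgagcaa
Rplp2, chr7:141447621-141447670, plus strand: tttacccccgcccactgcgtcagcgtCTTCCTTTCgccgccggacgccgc
Rpl4, chr9:64173357-64173406, plus strand: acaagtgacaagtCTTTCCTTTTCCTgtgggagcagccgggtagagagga
Rps2, chr17:24720033-24720082, plus strand: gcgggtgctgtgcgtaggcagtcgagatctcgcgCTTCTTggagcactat
Rpl12, chr2:32961682-32961731, plus strand: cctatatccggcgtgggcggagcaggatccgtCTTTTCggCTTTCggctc
Rpl14, chr9:120571487-120571536, plus strand: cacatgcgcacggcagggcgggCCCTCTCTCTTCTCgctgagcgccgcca
Rpl27a, chr7:109519165-109519214, plus strand: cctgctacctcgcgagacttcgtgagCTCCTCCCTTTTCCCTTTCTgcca
Rps6, chr4:86857348-86857397, minus strand: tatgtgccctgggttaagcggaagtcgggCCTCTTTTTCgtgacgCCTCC
Rpl39l, chr16:10170198-10170247, plus strand: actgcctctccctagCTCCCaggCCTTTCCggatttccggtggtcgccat
The RefSeq promoter table held 42 of the 48 members. A run of this kind was found for 34 of the 42, or 81%, against 49.9% of the 27025 genes of the table. Among the 33 members with a mean log2 intensity of 13 or more, 28 had an entry and 22 of those, or 78.6%, held the run. The 8 letters CCGGAAGT, which hold the core bound by ETS factors, or ACTTCCGG on the other strand, were found within the 300 bases from 250 before to 50 after the start in 9 of the 42 members, or 21.4%, against 4.31% of all genes of the table. The members whose probe sets rose and those whose probe sets fell both included genes with a capital run, as the Rpl27a and Rpl12 stretches show. These matches describe letters in a window and were not measured as start sites or as bound sites.

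Most members lay near the top of the array scale. Values are log2 RMA intensities, and a level of one probe set cannot be compared with that of another as an amount of mRNA. The highest value on an array was between 15.22 and 15.33, and the median over all probe sets was between 6.48 and 6.53. A mean of 13 or more was found for 33 members, among 303 genes of that level on the arrays, and 25 members were among the 100 genes with the highest means. A mean of 14 or more was found for 23 members. Another 6 members lay between 10 and 13, and 9 lay under 10.

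The 10 members within 1 log2 unit of the highest array value were Rpl37a, Rps29, Rpl41, Rplp2, Rps28, Rpl38, Rps14, Rps10, Rpl7a and Rps7. Rpl37a was the uppermost, at 14.89 and 14.90 in unstimulated wild-type macrophages, 14.90 and 14.88 in unstimulated Tpl2-deficient ones, 14.65 and 14.66 in LPS-treated wild-type ones, and 14.86 and 14.72 in LPS-treated Tpl2-deficient ones. Both wild-type LPS arrays were below all the others. At the other end, Rpl12, Rpl39l, Rps16 and Rpl3l were below the median of the array on at least 1 array.

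**Figure D1:**
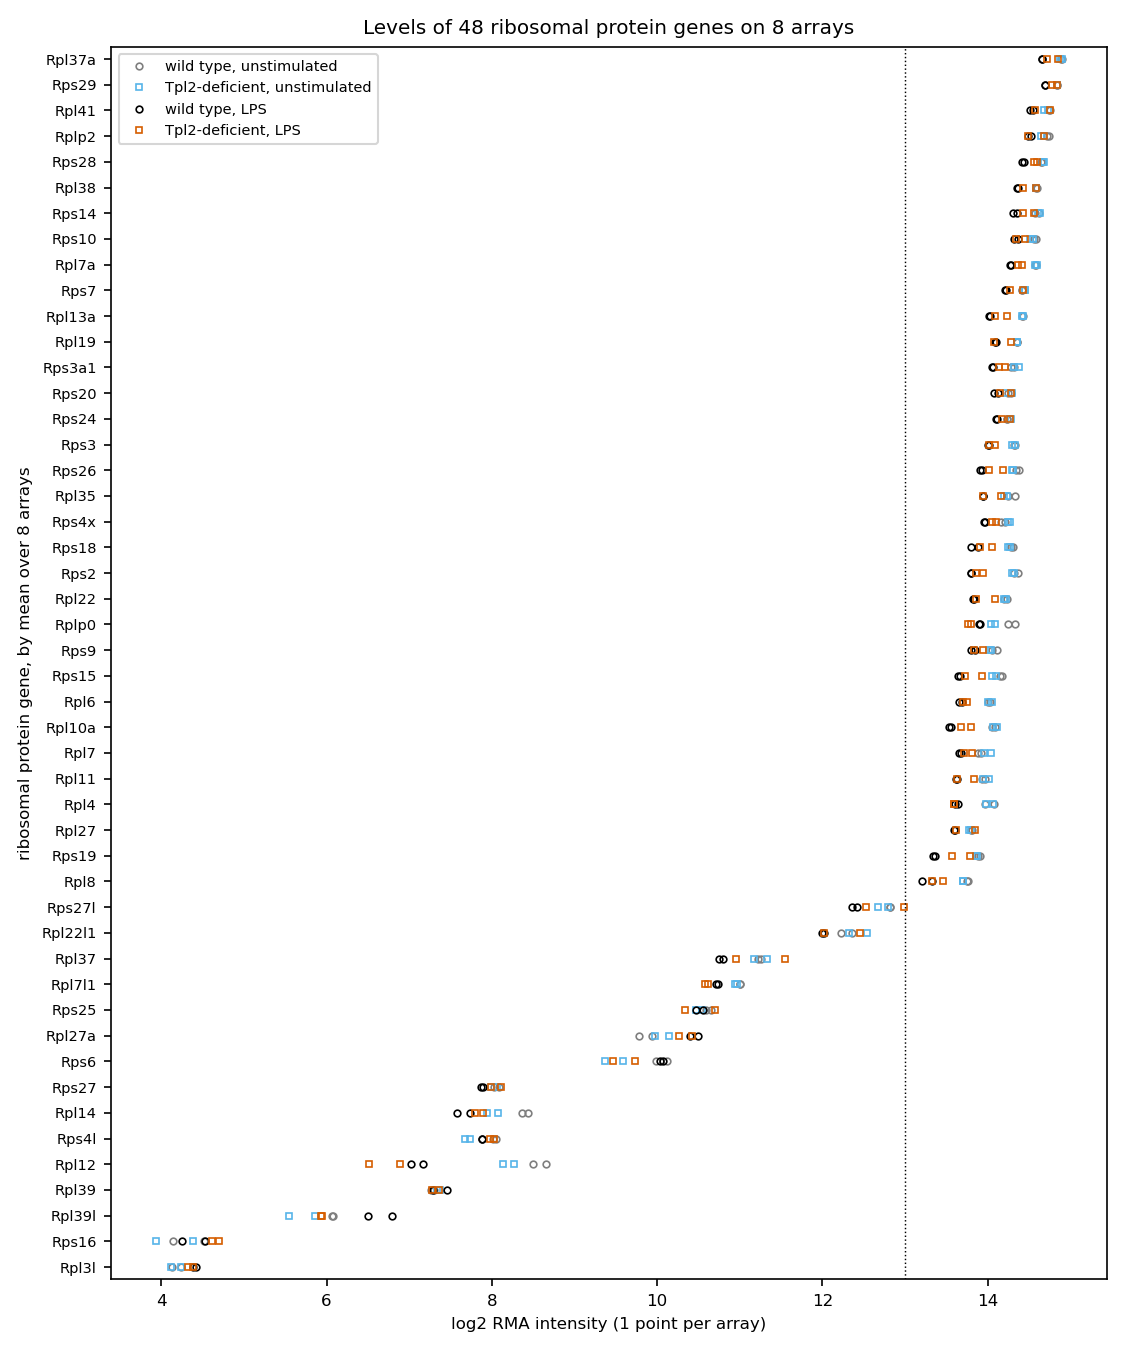
Log2 RMA intensity (horizontal axis) of the 48 ribosomal protein genes (rows, ordered by their mean), with 1 point per array and colour and shape for the 4 groups. The 33 genes to the right of the dotted line at 13 sit within a narrow band, with the wild-type LPS arrays at or near its left edge.

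Whether LPS changes the level of these mRNAs in wild-type macrophages was the first comparison. Ribosomal protein genes were mostly lower after LPS, by small amounts: 23 of the 48 fell, against 30.9% of all genes, 2 rose, against 21.3% of all genes, and 23 did not pass (limma, adjusted p under 0.05 over all genes). The median log2 difference was -0.26, against 0.044 over all genes. Among genes with a mean above the median level, the median was -0.32, and -0.27 for the 44 members there. By the median, these members thus fell no more than genes above that level. Both LPS arrays were below both unstimulated arrays for 42 of the 48, against 39.2% of all genes. Of the 26 large subunit genes, 14 fell and 2 rose, and of the 22 small subunit genes 9 fell and none rose, with medians of -0.29 and -0.23.

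The 33 members at 13 or more formed the most even group. All 33 differences were below 0, from -0.54 to -0.13 with a median of -0.27, and 18 passed as lower. Of the 270 other genes at that level, 107 were lower and 60 higher, with a median of -0.13. Within the 33, the fall was larger in the genes further from the top: 8 of the 10 between 13 and 14 passed, with a median of -0.37, against 10 of the 23 at 14 or more, with a median of -0.24. Across these 33 genes level and difference correlated at r = 0.58 and rho = 0.56, as a description only, since the genes share the arrays. Over all 48 members they were r = -0.27 and rho = -0.068. The part that the upper end of the scale plays in this was not tested directly.

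The largest fall at that level was that of Rps19, a small subunit protein whose gene is mutated in Diamond-Blackfan anaemia. Its values were 13.88 and 13.90 in unstimulated wild-type macrophages and 13.36 and 13.34 after LPS. The change was -0.54 ± 0.11 (standard error), a 1.46-fold fall (limma, adjusted p = 0.00108), and the groups did not overlap. Rps2, which lies by the mRNA entry channel of the small subunit, went from 14.31 and 14.37 to 13.80 on both LPS arrays, a difference of -0.54 ± 0.10 (limma, adjusted p = 0.000557). Its stretch above holds a shorter run of pyrimidines than that of Rpl7a.

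Other members named for their known roles moved by less. Rpl13a, which joins the GAIT complex that silences inflammatory mRNAs in myeloid cells, went from 14.42 and 14.43 to 14.03 and 14.02, a difference of -0.40 ± 0.10 (limma, adjusted p = 0.00518). Rpl11, which with Rpl5 restrains Mdm2, went from 13.94 and 13.97 to 13.62 on both arrays, a difference of -0.33 ± 0.10 (limma, adjusted p = 0.021). Rps3, which also binds NF-kB, fell by 0.31 ± 0.10 and Rps14, affected in the 5q- syndrome, by 0.27 ± 0.10 (limma, adjusted p = 0.0165 and 0.0408). The calls of Rpl11 and Rps3 were each lost under 5 of 21 alternatives, a 1.5-fold minimum and each wild-type array left out. The Rps14 call was lost under 9 of 20. Among them were the mean of all its probe sets, a replicate block, a 1.5-fold minimum and single arrays left out. Rpl38, linked to translation of Hox mRNAs, had a difference of -0.23 ± 0.10 that did not pass (limma, adjusted p = 0.0787).

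The proteins of the stalk, which recruits elongation factors to the large subunit, were measured in part. Rplp0, which anchors the stalk, went from 14.25 and 14.33 to 13.90 on both LPS arrays, a difference of -0.39 ± 0.10 (limma, adjusted p = 0.00523). Rplp2 went from 14.72 and 14.75 to 14.49 and 14.52, a difference of -0.23 ± 0.10 that did not pass (limma, adjusted p = 0.0879). The Rplp2 arrays did not overlap between the conditions either, although the test was not passed.

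The most divergent differences came from dim probe sets. Rpl12, a protein of the stalk base, went from 8.66 and 8.50 to 7.17 and 7.02, the largest fall of any member at -1.49 ± 0.13, or 2.8-fold (limma, adjusted p = 2.72e-06). Rpl14 went from 8.36 and 8.43 to 7.73 and 7.57, a difference of -0.75 ± 0.11 (limma, adjusted p = 0.000111). Both were far under the level of most members.
The only rises were also at low levels. Rpl27a went from 9.78 and 9.93 to 10.50 and 10.40, a rise of 0.59 ± 0.11 (limma, adjusted p = 0.000994), and Rpl39l from 6.06 and 6.08 to 6.50 and 6.79, a rise of 0.57 ± 0.13 (limma, adjusted p = 0.00338).

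The count of lower members depended on the arrays: it was 14, 11, 14 and 13 without the first or the second unstimulated or the first or the second LPS-treated wild-type array, in that order. It was 36 without either array of the LPS-treated Tpl2-deficient group, which enter through the shared estimate of the spread.

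**Figure D2:**
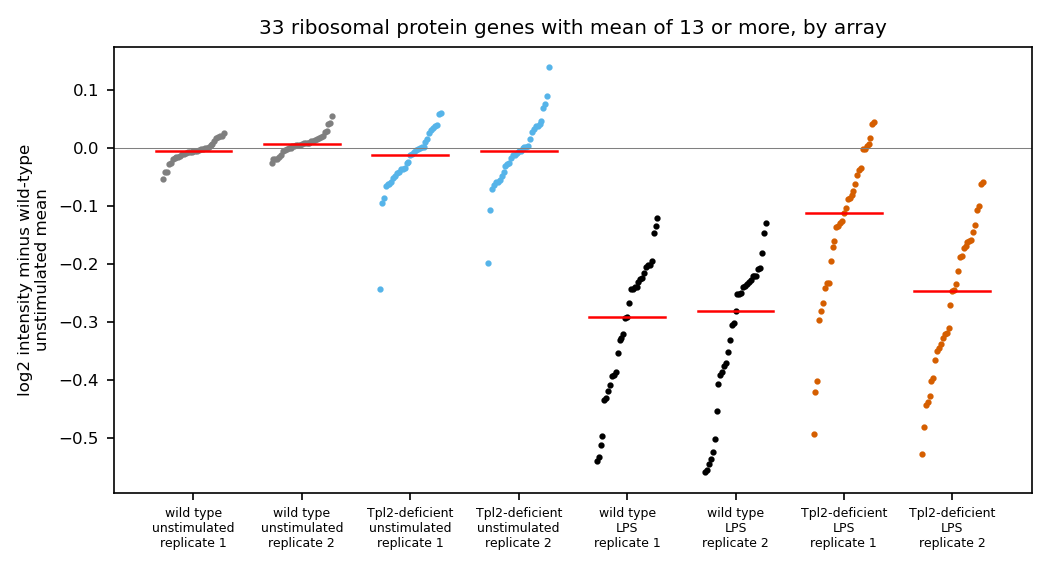
Log2 intensity of the 33 ribosomal protein genes at 13 or more, minus the mean of the gene in unstimulated wild-type macrophages (vertical axis), on each of the 8 arrays. Points are genes and red lines are medians, which were -0.29 and -0.28 on the wild-type LPS arrays and -0.11 and -0.25 on the Tpl2-deficient LPS arrays.

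In Tpl2-deficient macrophages the same comparison gave fewer changes. LPS lowered 9 of the 48, against 25.8% of all genes, raised 2, against 16% of all genes, and 37 did not pass. The median difference was -0.15, against 0.00 over all genes. Among genes with a mean above the median level, the median was -0.20, and -0.17 for the 44 members there. Both LPS arrays were below both unstimulated arrays for 29 of the 48, against 35.5% of all genes. The 33 members at 13 or more were again all below 0, from -0.42 to -0.03 with a median of -0.18, and 7 passed as lower. Of the 270 other genes at that level, 102 were lower and 50 higher, with a median of -0.15.

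Rpl12 had the largest fall here too. It went from 8.26 and 8.14 to 6.51 and 6.89, a difference of -1.50 ± 0.13 (limma, adjusted p = 2.98e-06), and the first LPS array lay just under the median of that array. Rpl4, which lines the exit tunnel of the large subunit, went from 13.98 and 14.06 to 13.60 and 13.59, a difference of -0.42 ± 0.10 (limma, adjusted p = 0.0043). Rps2 went from 14.31 and 14.30 to 13.94 and 13.86, a difference of -0.41 ± 0.10 (limma, adjusted p = 0.00465).
Rpl7l1, a relative of Rpl7, fell by 0.36 ± 0.09 and Rplp0 by 0.29 ± 0.10 (limma, adjusted p = 0.0091 and 0.0302). The Rplp0 call was lost under 8 of 21 alternatives. Among them were arrays centred on their medians, arrays weighted, only the 4 arrays compared and single arrays left out. The other 4 that passed as lower were Rpl10a, Rpl8, Rpl6 and Rps18, named after their values were seen.

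The rises were Rps16, from 3.94 and 4.38 to 4.61 and 4.70, a difference of 0.50 ± 0.17 (limma, adjusted p = 0.0324), and Rps4l, from 7.68 and 7.74 to 8.02 and 7.98, a difference of 0.29 ± 0.09 (limma, adjusted p = 0.0264). All the Rps16 values were under the array medians. The calls of Rps16 and Rps4l were both lost with spike-in centring, with arrays weighted and at a 1.5-fold minimum. With arrays centred on the hybridisation spike-ins, 26 members were lower and 0 higher, against 36% and 9.22% of all genes. The median of all genes was then -0.24. The count of lower members rose without the first LPS-treated Tpl2-deficient array and fell without either unstimulated one. The share of all genes called in those fits was not counted. The median was -0.21 without the first LPS-treated array and -0.074 without the second.

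The LPS-treated Tpl2-deficient arrays differed from each other more than those of other groups. Replicate 1 was above replicate 2 for 43 of the 48 members, and for all 33 at 13 or more, with a median gap of 0.13. In the other groups replicate 1 was the higher in 10 (wild type unstimulated), 11 (Tpl2-deficient unstimulated) and 21 (wild type with LPS) of the 33. For the 270 other genes at that level the median gap in the LPS-treated Tpl2-deficient group was -0.03. The spread between these arrays was not confined to the members. Over all genes the median SD within this group was 0.13, against 0.065 to 0.066 in the other groups. The members made up 3.76% of the summed linear signal over genes on the first of these arrays and 3.34% on the second. The same share was 4.02% to 4.12% on the 4 unstimulated arrays, and 3.28% and 3.27% on the LPS-treated wild-type arrays. The second Tpl2-deficient LPS array thus lay close to the wild-type LPS arrays, and the first lay between them and the unstimulated arrays.

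The comparison of the LPS responses between the genotypes shared no array between its sides. Lower in both genotypes were 9 members, and 14 passed as lower in the wild type without passing in Tpl2-deficient macrophages. Of all genes, 30.9% passed as lower in the wild type and 25.8% in Tpl2-deficient macrophages. A call in the wild type alone is not a test of a difference between the genotypes. The difference of the responses, Tpl2-deficient minus wild type, was above 0 for 41 of the 48, against 51.3% of all genes, and for 32 of the 33 at 13 or more. Of the 42 members below 0 in the wild type, 39 were further below 0 there than in Tpl2-deficient macrophages. Choosing members by a wild-type fall favours such a count in any set of genes, and its share over all genes was not counted. The test of the difference of the responses passed for 1 member higher, against 5.72% of all genes, and for 0 lower, against 2.87% of all genes. At an unadjusted p under 0.05 there were 4 of the 48, against 22.9% of all genes. The median difference was 0.12, which became 0.033 when arrays were centred on the spike-ins, 0.068 without the first LPS-treated Tpl2-deficient array and 0.20 without the second.

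Rpl14 was the member that passed. Its values were 8.36 and 8.43 in unstimulated wild-type macrophages, 7.73 and 7.57 with LPS, 8.07 and 7.94 in unstimulated Tpl2-deficient ones, and 7.89 and 7.80 with LPS. The response differed by 0.59 ± 0.15 (limma, adjusted p = 0.0359). The unstimulated wild-type arrays stood above the other 6. The call was lost without any 1 of the 6 arrays outside the LPS-treated Tpl2-deficient group, with values from 0.51 to 0.66.
Rps19 differed by 0.36 ± 0.15 and Rps4l by 0.45 ± 0.13, and neither passed (limma, adjusted p = 0.176 and 0.0639). For Rps19 the 95% interval was 0.03 to 0.69.

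**Figure D3:**
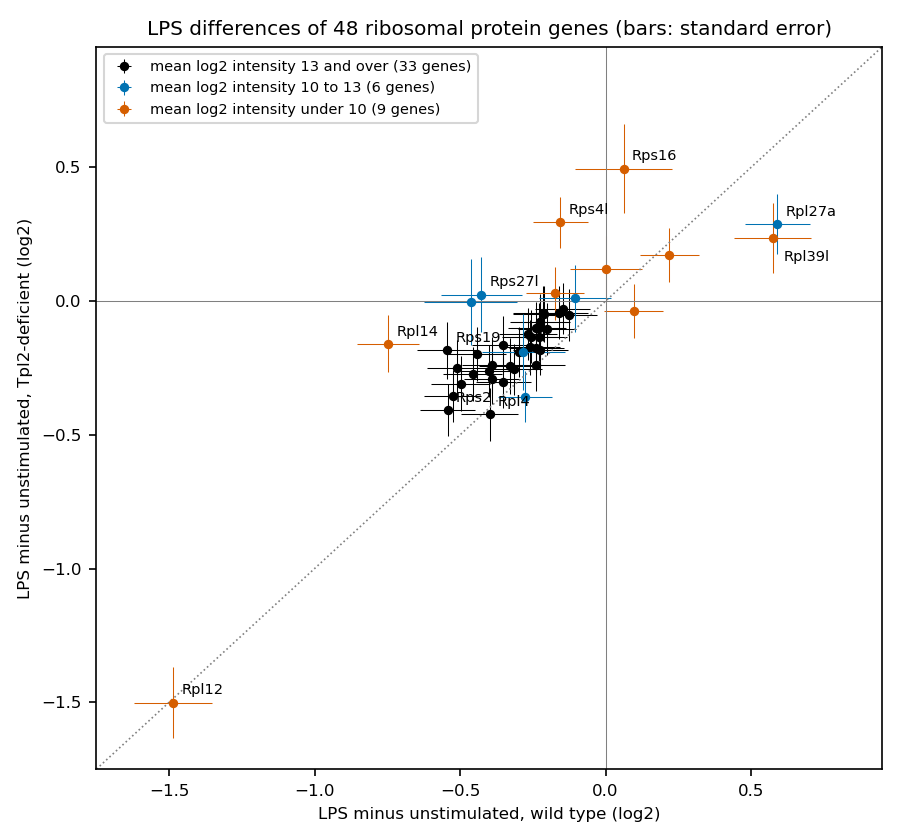
Log2 difference between LPS-treated and unstimulated arrays in wild-type (horizontal axis) and Tpl2-deficient macrophages (vertical axis) for the 48 ribosomal protein genes, with standard errors as bars and colour for the mean level. The genes at 13 or more cluster above the dotted line of equal response, apart from Rpl4 under it, and Rpl12, Rpl14, Rpl27a, Rpl39l, Rps16 and Rps4l, at lower levels, lie away from them.

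Without LPS no member passed the test between the genotypes. None was called higher, against 0.154% of all genes, and none lower, against 0.346% of all genes (limma). At an unadjusted p under 0.05 there were 6 of the 48, against 13.4% of all genes, and 5 of the 6 were among the 9 under a level of 10. The median difference, Tpl2-deficient minus wild type, was -0.01, and 0.11 when arrays were centred on the spike-ins. The difference nearest to passing was that of Rps6, the substrate of the S6 kinases, at 9.98 and 10.12 in wild-type and 9.37 and 9.58 in Tpl2-deficient macrophages, or -0.58 ± 0.12 (limma, adjusted p = 0.0828). The brighter probe set that lists Rps6 beside other symbols had 0.03 (limma, adjusted p = 0.938).

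With LPS, 2 members were lower in Tpl2-deficient macrophages, against 5.73% of all genes, and none was higher, against 8.01% of all genes. At an unadjusted p under 0.05 there were 6 of the 48, against 24.3% of all genes. Rpl39l was 6.50 and 6.79 in wild-type and 5.93 and 5.94 in Tpl2-deficient macrophages, a difference of -0.71 ± 0.13 (limma, adjusted p = 0.00405). Rps6 was 10.07 and 10.04 against 9.73 and 9.46, a difference of -0.46 ± 0.12 (limma, adjusted p = 0.0304). The Rps6 call was lost under 9 of 21 alternatives, and the difference changed sign under 1 more. Among the 9 were the mean of its probe sets, repeated quantile normalization, spike-in centring, array weights and only the 4 arrays compared. Others of the 9 left out a single array. For both genes the arrays of the genotypes did not overlap.
Of the 48 differences 39 were above 0 and 9 below. Both Tpl2-deficient arrays were above both wild-type arrays for 31 of the 48, against 26.9% of all genes, and below both for 7, against 19.7% of all genes. The median difference was 0.12, against 0.02 over all genes. Rps19 had the largest difference among the members at 13 or more, 13.79 and 13.56 against 13.36 and 13.34, or 0.33 ± 0.11 (limma, adjusted p = 0.0647). Without either LPS-treated wild-type array fewer members were lower, and without the second LPS-treated Tpl2-deficient array more were higher. The share of all genes called in these fits was not counted. The median became 0.18 without the second LPS-treated Tpl2-deficient array and 0.054 without the first.

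Paralogues are described pair by pair, and no difference within a pair was tested. Rpl22 went from 14.24 and 14.20 to 13.83 on both arrays with LPS in the wild type, -0.39 ± 0.11 (limma, adjusted p = 0.00947). Its paralogue Rpl22l1, whose level Rpl22 restrains, went from a mean of 12.29 ± 0.10 (SD, n = 2) to 12.01 ± 0.02 (SD, n = 2), a difference of -0.28 ± 0.14 (limma, adjusted p = 0.12). Rpl22 passed and Rpl22l1 did not.
Rps27l, a p53 target, went from 12.81 on both arrays to 12.42 and 12.35 in the wild type, -0.43 ± 0.14 (limma, adjusted p = 0.0245). This call was lost under 5 of 21 alternatives, a 1.5-fold minimum and each wild-type array left out. In Tpl2-deficient macrophages Rps27l was 12.67 and 12.79 without and 12.99 and 12.52 with LPS, a difference of 0.02 ± 0.14 with a spread between the LPS arrays larger than its wild-type difference. Rps27 itself, at 8.06 ± 0.04 (SD, n = 2) in unstimulated wild-type macrophages, had differences of -0.18 ± 0.10 and 0.03 ± 0.10 that did not pass. A brighter probe set that lists Rps27 beside other symbols, at 13.59, had -0.31 and -0.05, also without passing.
Rpl39, which lies in the exit tunnel, had differences of 0.10 ± 0.10 and -0.04 ± 0.10 at an average of 7.33, beside the rise of Rpl39l in the wild type. On a brighter probe set that lists Rpl39 beside other symbols, at 14.58, they were -0.11 and -0.05, without passing. Rpl7 had differences of -0.24 ± 0.10 in both genotypes that did not pass, while Rpl7l1 passed in both, at -0.28 ± 0.09 in the wild type (limma, adjusted p = 0.0281). The Rpl7l1 call was lost under 7 of 21 alternatives in the wild type and 3 of 21 in Tpl2-deficient macrophages, single arrays left out among them. Rps4x had -0.22 ± 0.09 and -0.18 ± 0.09, without passing, beside the rise of Rps4l in Tpl2-deficient macrophages. Rpl3l, a muscle paralogue, lay at 4.28 on average, under the array medians on every array, and none of its differences passed.

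For 9 of the members the array also carried a probe set at least 1 log2 unit brighter that lists the gene beside other symbols, most often predicted genes. The probe sets are named by the shared symbol here only to set them side by side, since their signal cannot be given to 1 gene. For Rpl12 the brighter set, at 13.49, had a wild-type LPS difference of -0.42 where the dim one had -1.49. In Tpl2-deficient macrophages the brighter set had -0.27, without passing (limma, adjusted p = 0.0724). The call of the dim one, at -1.50, was lost when probe sets of several symbols could stand for genes (limma, adjusted p = 0.0602). A second set listing Rpl12 beside another symbol, at 13.46, had -0.55 in the wild type and -0.32 in Tpl2-deficient macrophages. Both of its differences passed (limma, adjusted p = 0.00127 and 0.0366). For Rpl14 the values were -0.56 at 13.47 and -0.75, and the difference of the responses was 0.31 on the brighter set, without passing.
Others changed sign. The wild-type difference was -0.34 on the brighter set that lists Rpl27a, at 14.29, where the set of Rpl27a alone rose by 0.59. The set that lists Rps16, at 14.59, had -0.11 in Tpl2-deficient macrophages where the dim set rose by 0.50. The set that lists Rps6, at 14.73, had 0.0755 between the genotypes with LPS where the set of Rps6 alone had -0.46.
Over all 109 probe sets that name 1 member symbol beside others, 50 were lower and 1 higher with LPS in the wild type. Their median was -0.28, and 30.9% of all genes were lower and 21.3% higher. In Tpl2-deficient macrophages 13 of the 109 were lower and none higher, with a median of -0.16, against 25.8% and 16% of all genes. These shares are over genes and not over probe sets.

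**Figure D4:**
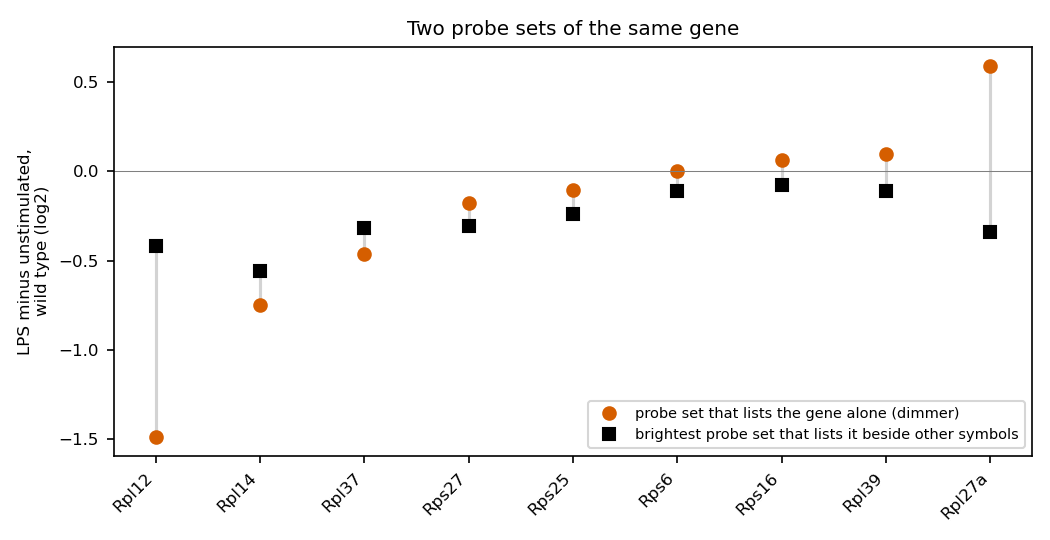
Log2 difference between LPS-treated and unstimulated wild-type arrays (vertical axis) for 9 ribosomal protein genes, on the probe set that lists the gene alone (circles) and on the brightest probe set that lists it beside other symbols (squares). The squares lie between -0.56 and -0.08, and the circles between -1.49 and 0.59.

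Probe sets that list 1 symbol also disagreed within a gene. The 48 members had 103 such probe sets, and 23 genes had more than 1. Rpl13a had 4, which fell further the dimmer they were: the differences in the wild type were -0.40, -0.57, -0.68 and -1.14 at means of 14.26, 13.87, 12.47 and 11.34. This order was not general. Of 18 genes with several such sets at 10 or more, the dimmest fell more than the brightest in 9 and less in 9.
Rpl22 had 1 set at 9.71 with a difference of -1.74 ± 0.14 in the wild type and -1.41 ± 0.14 in Tpl2-deficient macrophages, against -0.38 on the set at 12.34. Rps3 had 1 at 9.11 with -1.27 ± 0.11 and -1.09 ± 0.11. A set of Rps9 at 9.39 went the other way, from 9.15 and 9.16 to 10.22 and 10.15 in the wild type, a difference of 1.03 ± 0.10 (Rps9 was chosen after its values were seen). The parts of the transcripts that these sets match are not given in the sources used here.

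Ribosomal proteins whose symbols fall outside the rule were measured for Rpsa, the laminin receptor homologue of the small subunit, and Fau, a ubiquitin-like fusion with a small subunit protein. Rpsa went from 13.93 and 13.91 to 13.20 and 13.15 with LPS in the wild type, a difference of -0.75 ± 0.09, and in Tpl2-deficient macrophages it fell by 0.45 ± 0.09 (limma, adjusted p = 4.52e-05 and 0.00231). The differences of Fau were -0.23 ± 0.10 and -0.12 ± 0.10, and neither passed. Rpsa thus fell in both genotypes and Fau did not pass in either.

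The ribosomal proteins of mitochondria, which are made in the cytosol and imported, had a wider range of responses. Of 76 measured, 45 fell and 4 rose with LPS in the wild type, against 30.9% and 21.3% of all genes, with a median of -0.42. In Tpl2-deficient macrophages 18 fell and 20 rose, or 23.7% and 26.3%, against 25.8% and 16% of all genes, with a median of 0.00. Mrpl41 went from 11.28 and 11.12 to 8.95 and 8.70 in the wild type, a difference of -2.37 ± 0.13 (limma, adjusted p = 3.79e-08), and fell by 1.64 ± 0.13 in Tpl2-deficient macrophages. Mrpl42 fell by 1.42 and 0.90 and Mrpl2 by 1.34 ± 0.11 in the wild type, while Mrpl13 rose by 0.98 ± 0.12 in Tpl2-deficient macrophages.
The difference of the responses passed for 17 of the 76, all higher, with a median of 0.46, where 1 of the 48 cytosolic genes passed. Of all genes, 5.72% passed as higher and 2.87% as lower. With LPS, 16 were higher and 2 lower in Tpl2-deficient macrophages, against 8.01% and 5.73% of all genes, with a median of 0.25. Without LPS none passed, against 0.154% of all genes higher and 0.346% lower, with a median of -0.20.

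**Figure D5:**
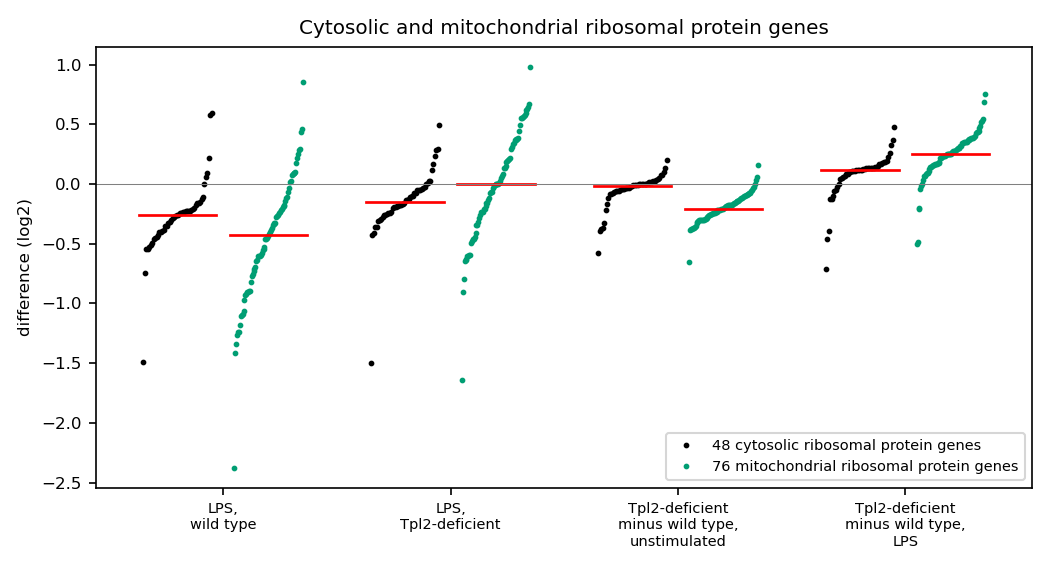
Log2 differences (vertical axis) of 48 cytosolic and 76 mitochondrial ribosomal protein genes in 4 comparisons (horizontal axis). Points are genes and red lines are medians, and the medians of the 2 sets for LPS were -0.26 and -0.42 in wild-type and -0.15 and 0.00 in Tpl2-deficient macrophages.

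Genes that make ribosomes included more that fell than rose with LPS in both genotypes, as did all genes, of which 30.9% fell and 21.3% rose in the wild type and 25.8% fell and 16% rose in Tpl2-deficient macrophages. Of 17 genes of RNA polymerase I, which transcribes ribosomal RNA, 14 fell and 1 rose in the wild type (median -0.54), and 8 fell and 1 rose in Tpl2-deficient macrophages (median -0.26). Polr2e, a subunit shared by the nuclear polymerases, fell by 1.31 ± 0.11 and 1.18 ± 0.11, and the catalytic subunit gene Polr1a by 0.99 ± 0.10 and 0.77 ± 0.10. The third named by size was Polr1c in the wild type, which fell by 0.89 ± 0.12, and Polr1b in Tpl2-deficient macrophages, which fell by 0.67 ± 0.18. The difference of the responses passed for 3 of the 17, all higher, against 5.72% of all genes.
Of 58 assembly factor genes, 30 fell and 8 rose in the wild type and 26 fell and 11 rose in Tpl2-deficient macrophages, with medians of -0.30 and -0.23. Wdr12, of the large subunit processing complex PeBoW, fell by 1.79 ± 0.11 in the wild type and fell by 1.81 ± 0.11 in Tpl2-deficient macrophages, and Dkc1, the pseudouridine synthase, fell by 1.66 ± 0.12 in the wild type. Sbds, which with a GTPase releases Eif6 from the large subunit, rose by 1.90 ± 0.10 and 2.69 ± 0.10. Rrs1 rose by 1.99 ± 0.10 in Tpl2-deficient macrophages against 0.73 ± 0.10 in the wild type, and that difference passed (limma, adjusted p = 0.000262).

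Translation factors moved in both directions. Beside the counts here, 30.9% of all genes fell and 21.3% rose in the wild type. In Tpl2-deficient macrophages 25.8% of all genes fell and 16% rose. Of 37 initiation factor genes, 18 fell and 6 rose in the wild type and 17 fell and 5 rose in Tpl2-deficient macrophages, with medians of -0.30 and -0.23. Eif4b, a cofactor of the initiation helicase, fell by 1.39 ± 0.13 and 1.53 ± 0.13, and Eif4ebp2, a repressor of Eif4e, by 1.36 ± 0.10 and 1.14 ± 0.10. Eif4e, the cap-binding protein, rose by 1.07 ± 0.10 in the wild type and 0.50 ± 0.10 in Tpl2-deficient macrophages, and the responses differed by -0.57 ± 0.14 (limma, adjusted p = 0.028). Eif6 rose by 1.06 ± 0.09 in both.
Of 13 elongation and termination factor genes, 6 fell and 3 rose in the wild type and 5 fell and 2 rose in Tpl2-deficient macrophages. Gspt2 and Gspt1, which encode forms of the release factor eRF3, moved apart: Gspt2 fell by 1.76 ± 0.15 and 1.24 ± 0.15, and Gspt1 rose by 1.01 ± 0.13 and 0.75 ± 0.13. Eef2k, the kinase that inhibits elongation factor eEF2, fell by 1.61 ± 0.12 and 1.04 ± 0.12. Of 18 genes of regulators of ribosomal protein synthesis, 9 fell and 4 rose in each genotype.

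Map3k8, the targeted gene, was 9.27 and 9.28 in unstimulated wild-type and 8.32 and 8.23 in unstimulated Tpl2-deficient macrophages, and 11.01 and 10.91 against 9.83 and 10.09 with LPS. It was lower in Tpl2-deficient macrophages by 1.00 ± 0.11 in both states (limma, adjusted p = 0.00237 and 0.000125), and it is not known here whether the probe set lies in the deleted part. Markers of macrophages averaged 12.7 to 12.9 on every array, and the lists for 7 other cell types averaged 5.30 to 7.06. The summed linear signal of 7 neutrophil and granulocyte precursor markers was 828 to 931 without and 1647 to 1833 with LPS in the wild type, and 805 to 817 and 1012 to 1169 in Tpl2-deficient macrophages; its part in the results was not tested. The gap between 3′ and 5′ control probe sets of Actb was 0.67 to 0.90 without LPS and 0.46 to 0.68 with LPS, and its part was not tested either. In bulk RNA, fewer cells of a type and less RNA per cell cannot be told apart. Centring on the hybridisation spike-ins moved the median of all genes to -0.10 in the wild type and -0.24 in Tpl2-deficient macrophages, and that of the members to -0.41 and -0.39. Relative to the median of all genes, which centring cannot change, the members' medians were -0.30 and -0.15. Without such centring, the medians of genes above the median level were -0.32 and -0.20, against -0.27 and -0.17 for the 44 members there.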

How the data were processed

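The authors deposited log2 intensities, 1 value per probe set (45101) and array, and GCOS and RMA are named per the submitters' processing notes, without versions. No source used here names the chip definition file. RMA adjusts the distributions of the arrays to each other, so a shift common to most genes is removed from the values. No further normalization and no filter on low values was applied. Probe sets were named through the array's annotation table, and the RefSeq table of GRCm38.p6 gave gene types, promoters and positions.

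A gene was represented by the probe set with exactly 1 symbol and the highest mean. Differences over 18193 genes came from 1 linear model of the 8 arrays that fitted the 4 group means (limma 3.58.1, R 4.3.3, with lmFit then eBayes; 4 residual and 6.87 prior degrees of freedom; two-sided). The threshold was 0.05 for p adjusted by Benjamini and Hochberg over all genes. Values on other probe sets come from the same test fitted across probe sets. Errors after ± are standard errors. Arrays have no read depth, and their number limits the precision.

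The members and the lists (mitochondrial ribosomal proteins, RNA polymerase I, assembly factors, initiation, elongation and termination factors, regulators, ribosomal proteins outside the symbol rule, cell type markers) were chosen with earlier results of these data known. Named were, per comparison, the 4 highest and 4 lowest differences among members that passed, paralogue pairs, stalk genes, Rps6, Rps3, Rps14, Rps19, Rps27a, Rpl5, Rpl11, Rpl13a and Rpl38, members near the top of the arrays, up to 3 genes per list of translation or ribosome genes and LPS comparison, and Map3k8. Alternatives covered the choice of probe sets, scaling, the filter, the variance model, the arrays in the fit, a 1.5-fold minimum, a replicate block and each array left out. Replicate numbers were not taken as pairs, since the labels do not say that they mark a shared culture, animal or day. Correlations of the replicate deviations between groups ran from -0.12 to 0.10, which cannot show whether same-numbered arrays share an origin.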

Additional observations from a re-analysis of the deposited data

Results flagged for a closer look

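The response of Rpl14 to LPS differed between the genotypes by the test of the difference itself, at 0.59 ± 0.15 on the log2 scale (limma, adjusted p = 0.0359), the Tpl2-deficient response being the smaller fall. The call was lost under 10 of 20 alternatives, with adjusted p from 0.0156 to 0.269 over all 20 and differences from 0.31 to 0.66. No other member passed this test. Groups of 2 arrays are too small for a test of single outlying arrays.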

How the results depend on the processing

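The medians of the ribosomal protein genes kept their direction under all alternatives for LPS in both genotypes and the genotypes with LPS. The unstimulated genotype median changed sign with probe sets of several symbols, at 5e-05, and with spike-in centring, at 0.11. Spike-in centring also gave -0.41 and -0.39 for LPS in wild-type and Tpl2-deficient macrophages and 0.033 for the difference of the responses. Counts moved more, and the causes were not tested save where fewer arrays entered. Shares of all genes are not given beside these counts. For LPS in the wild type, lower genes numbered 39 with probe sets of several symbols (of 74 genes), 36 with a mean-variance trend or array weights, 35 with only the 4 arrays compared and 2 at 1.5-fold or more; higher genes numbered 4 without _x_at and _s_at probe sets and 1 with several-symbol sets, above the median level or at 1.5-fold. For LPS in Tpl2-deficient macrophages, lower genes numbered 14 (quantile normalization repeated), 26 (spike-ins), 15 (above the median level), 19 (trend), 5 (array weights), 5 (4 arrays) and 1 (1.5-fold); higher genes numbered 4 (without _x_at and _s_at), 1 (several symbols), 1 (4 arrays) and 0 (spike-ins, array weights, 1.5-fold). For the unstimulated genotypes, 1 gene was lower when centred on array medians or with the trend, and 3 with array weights. For the genotypes with LPS, 1 gene was higher with the mean of probe sets or spike-ins and 2 without _x_at and _s_at, above the median level or with the trend; 1 was lower with several symbols, quantile normalization, spike-ins, array weights, 4 arrays or 1.5-fold. For the difference of the responses, 2 were higher with the mean of probe sets, without _x_at and _s_at, array medians, above the median level or the trend, 0 with several symbols, quantile normalization, spike-ins or array weights, and 1 was lower without _x_at and _s_at. Reversed were Rpl27a (-0.34, LPS in the wild type), Rps16 (-0.11, LPS in Tpl2-deficient) and Rps6 (0.0755, genotypes with LPS), each on a brighter probe set of several symbols. Leaving out each array in turn gave, for LPS in the wild type, 11 to 36 lower, 2 higher and medians of -0.26 to -0.25; for LPS in Tpl2-deficient macrophages 3 to 21 lower, 0 to 2 higher and -0.21 to -0.074; for the unstimulated genotypes 0 either way and -0.03 to -0.0091; for the genotypes with LPS 0 to 2 lower, 0 to 4 higher and 0.054 to 0.18; for the difference of the responses 0 lower, 0 to 5 higher and 0.068 to 0.20. With a replicate block, 21 were lower and 2 higher for LPS in the wild type, 8 and 2 in Tpl2-deficient macrophages, and no other count changed. Crossed numbers, chosen after seeing the data, gave 5 lower and 1 higher in Tpl2-deficient macrophages. Of single genes under single alternatives, 2061 kept their side of the threshold, 77 of them with a change of sign that passed on neither side, 86 lost it, 90 gained it and 3 reversed. With 2 arrays per group small differences near the top of the scale stayed undetermined.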

Other observations

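All 22 small subunit genes had a difference of the responses above 0, from 0.04 to 0.45. So did 19 of the 26 large subunit genes and 51.3% of all genes. None of the small subunit genes passed the test, and the difference between the subunits was not tested. Rps16 counts through its dim probe set, at 0.43, where the brighter set that lists it beside other symbols had -0.04. Centring on the spike-ins moved the median over the 48 members from 0.12 to 0.033. Among genes at 13 or more, the median LPS difference in Tpl2-deficient macrophages was -0.18 for the 33 ribosomal protein genes and -0.15 for the 270 others, and in the wild type it was -0.27 and -0.13. The 13 members at that level on _x_at or _s_at probe sets, which may match related sequences, had a wild-type median of -0.26, and the 20 on other probe sets -0.31.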
